A study of Mus musculus with 6 samples.

Results

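Genes that drive the cell cycle and mitosis were examined as a measure of proliferation in mouse osteosarcomas, tumors of bone-forming cells. The 49 members were chosen by name from the 39179 genes counted, though with earlier results of these data known. They cover the cycle from the G1 cyclins to the proteins of the mitotic spindle. RNA had been sequenced from 6 primary osteosarcomas, 3 of Cd44+/+ mice (No244, No316 and No368) and 3 of Cd44-/- mice (No203, No279 and No364). CD44 is a cell surface receptor for hyaluronic acid. All 6 mice, the Cd44+/+ controls included, carried an Nf2 mutation (Nf2Δ2/+) on a mixed C57BL/6, 129/Sv and FVB background. No treatment, age or batch was given. By the labels each number stands for another mouse, the tumors came from mice of unlike genotype rather than from edited cells of a single tumor, and the deposited protocol speaks of RNA from cell lines where the tissue field and the study's methods name tumor tissue.

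A dividing cell passes from G1 into S phase when D-type cyclins with CDK4 or CDK6, and then cyclin E with CDK2, inactivate the retinoblastoma protein and release E2F factors, which switch on the genes of DNA replication. The MCM helicase is loaded onto origins of replication before S phase, and cyclin B with CDK1 later starts mitosis, under the brake of WEE1 and the push of CDC25 phosphatases. FOXM1 and MYBL2 raise the late genes, Aurora kinases, PLK1 and kinesins build the spindle, and the anaphase-promoting complex with CDC20 and UBE2C ends mitosis. Ki-67, the product of Mki67, is the protein that pathologists stain to count cycling cells in tumors.

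Several libraries stood apart, and the values of the members have to be read beside them. Levels are given as CPM, counts per 1000000 of the TMM effective library size, which corrects for a few genes taking much of a library. Lists of values name the Cd44+/+ tumors in the order No244, No316, No368 and then the Cd44-/- tumors in the order No203, No279, No364. Libraries held 18076388 to 26954142 counted reads. The mitochondrial share of counts was 55.2% for No244 and 5.94% to 12.5% for the others. No316 and No368 agreed within binomial sampling noise for 87.2% of 16671 genes and for 47 of the 49 members, against 15.7% to 23.98% of genes and 0 to 12 members in the other 14 pairs of tumors. They may be 1 tumor or library, and they were counted as 1 sample in every mean ± SD, which leaves n = 2 for Cd44+/+ and n = 3 for Cd44-/-. The p-values of the fit on all 6 libraries count them as 2 replicates. Cd44 itself, the check of the labels, was at 137, 243.6 and 240.3 CPM in Cd44+/+ and at 19.2, 15.7 and 61.8 CPM in Cd44-/-. Its log2 fold change of -2.68 (SE 0.65) had an adjusted p of 0.452 in the edgeR quasi-likelihood test and 0.0145 in DESeq2.

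Markers of other cell types differed among the tumors. The 6 skeletal muscle markers summed to 17697 CPM in No244 and to 14.5 to 649 CPM elsewhere, all 6 detected in every tumor. The 10 hepatocyte markers summed to 143326 CPM in No364, where albumin (Alb) alone was at 60281 CPM, and to 83.4 to 195 CPM in the other tumors. The 7 erythroid markers, genes of the red cell lineage, summed to 4615 CPM in No244, 1729 CPM in No364 and 220.5 to 774 CPM in the others. The globin genes Hbb-bt and Hba-a1 were the largest values, at 2397 and 1870 CPM in No244 and 614 and 969 CPM in No364. Not all of the list followed. Tfrc was highest in No203 (542 CPM, against 290 CPM in No244 and 86.9 CPM in No364). Slc4a1 in No364 (0.73 CPM) and Klf1 in No244 (0.08 CPM) were below No203 (1.47 and 0.28 CPM). The 6 epithelial markers summed to 1971 CPM in No364 and to 2.68 to 36.4 CPM elsewhere. In No364 the keratin genes Krt8 and Krt18 were at 963 and 959 CPM. Cdh1, Epcam, Krt19 and Cldn4 were also highest in No364, though only at 37.9, 7.54, 2.04 and 1.99 CPM. The 6 osteoclast markers, genes of bone-resorbing cells, summed to 12895 CPM in No244, 11227 CPM in No203 and 9201 CPM in No279, and to 764 to 775 CPM in No316, No368 and No364. The 10 markers of the osteoblast lineage, all detected in every tumor, summed to 1459.6 CPM in No364 and to 21110.3 to 81831 CPM elsewhere. Some markers that define osteoblasts were low in 2 of the tumors labelled osteosarcoma: Sp7, the factor required for osteoblast formation, was at 0.31 CPM in No364 and 3.96 CPM in No279 against 192 to 333 CPM in the other 4, and Ibsp, bone sialoprotein, was at 2.25 and 3.27 CPM against 640.1 to 4820.2 CPM. Other markers of the list were nearer to the Cd44+/+ tumors in No279, where Col1a1 was at 11990.4 CPM (8482 CPM in No244), Runx2 at 68.3 CPM (95.03 CPM in No244) and Phex at 15.9 CPM (7.89 and 7.96 CPM in No368 and No316). In bulk RNA, fewer cells of a type and less RNA per cell cannot be told apart, and the part that these other cell types had in the members' levels was not tested.

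Promoters of 5 members are shown because each holds some of the sequences by which replication genes and mitotic genes are known to be controlled, and because the values of these members are described in detail. The RefSeq promoter table (GRCm38.p6) had an entry for 37 of the 49 members. Each line gives the 150 bases before the transcription start on the gene's own strand, 5′ to 3′. Capitals mark E2F letters (TTGGCGC or TTCCCGC, or else TTGCCGC or TTCGCGC), then the letters of the CHR, the cell cycle genes homology region (TTTGAA or TTCGAA), and CCAAT boxes, each on either strand.
Mcm6, a subunit of the MCM helicase, chr1:128359706-128359855, minus strand: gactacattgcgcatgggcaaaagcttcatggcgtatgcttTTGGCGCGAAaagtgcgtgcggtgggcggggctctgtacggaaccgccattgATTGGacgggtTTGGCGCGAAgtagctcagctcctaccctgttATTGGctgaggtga
Ccnb2, cyclin B2, chr9:70421555-70421704, minus strand: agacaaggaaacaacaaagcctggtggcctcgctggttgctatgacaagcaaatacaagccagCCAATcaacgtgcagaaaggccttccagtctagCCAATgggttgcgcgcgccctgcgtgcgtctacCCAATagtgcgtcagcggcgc
Plk1, polo-like kinase, chr7:122159285-122159434, plus strand: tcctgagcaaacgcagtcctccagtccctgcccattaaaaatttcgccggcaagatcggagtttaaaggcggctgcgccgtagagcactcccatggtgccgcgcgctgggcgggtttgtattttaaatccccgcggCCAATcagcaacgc
Cdc20, activator of the anaphase-promoting complex, chr4:118437344-118437493, minus strand: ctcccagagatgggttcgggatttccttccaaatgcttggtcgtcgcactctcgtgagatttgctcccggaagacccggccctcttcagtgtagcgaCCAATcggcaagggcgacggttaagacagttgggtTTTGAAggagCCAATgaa
Top2a, topoisomerase II alpha, chr11:99024190-99024339, minus strand: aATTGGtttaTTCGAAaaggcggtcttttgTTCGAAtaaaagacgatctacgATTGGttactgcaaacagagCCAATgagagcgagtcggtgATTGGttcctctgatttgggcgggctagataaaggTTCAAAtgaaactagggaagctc

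The replication gene Mcm6 held E2F letters in 2 runs, in each of which a match on either strand overlaps the other. The 4 mitotic genes held CCAAT boxes and no E2F letters in these windows, Plk1 only 1 box. Ccnb2 held 3 boxes at even distances, 33 bases from start to start. CHR letters were in the windows of Cdc20 and Top2a and not in those of Plk1 and Ccnb2. The CHR match of Ccnb2 lies further upstream, from base -167. Over 250 upstream bases, E2F letters were in 8 of the 19 promoters of G1, S phase and replication members (42.1%) and in 3 of the 18 of G2 and mitosis members (16.7%), against 9.01% of 27025 genes in the table. CHR letters were in 3 of the 19 (15.8%) and 8 of the 18 (44.4%), against 19.6%. CCAAT was in 12 of the 19 (63.2%) and 16 of the 18 (88.9%), against 37.5%. The members' upstream bases were also richer in G and C, 60.1% on average against 53.2% over all windows. A match of letters is a description and no measurement of binding.

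The members varied largely together from tumor to tumor, and the order of the tumors cut across genotype. The median level of the 49 members was 11.7, 25.9 and 24.7 CPM in the Cd44+/+ tumors and 34.97, 34.1 and 11.7 CPM in the Cd44-/- tumors. So each genotype held a tumor at 11.7 CPM (No244 and No364), and the lowest values of the members came almost without exception from these: 27 members were lowest in No244 and 21 in No364, the exception being Cdk6, lowest in No203. The highest value lay in No279 for 23 members and in No203 for 20, and in none was it that of No364. Over the 16839 genes tested, No244 held the lowest value for 25.6% and No364 for 24.6%, and No279 held the highest for 21.5% and No203 for 14.2%.

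**Figure D1:**
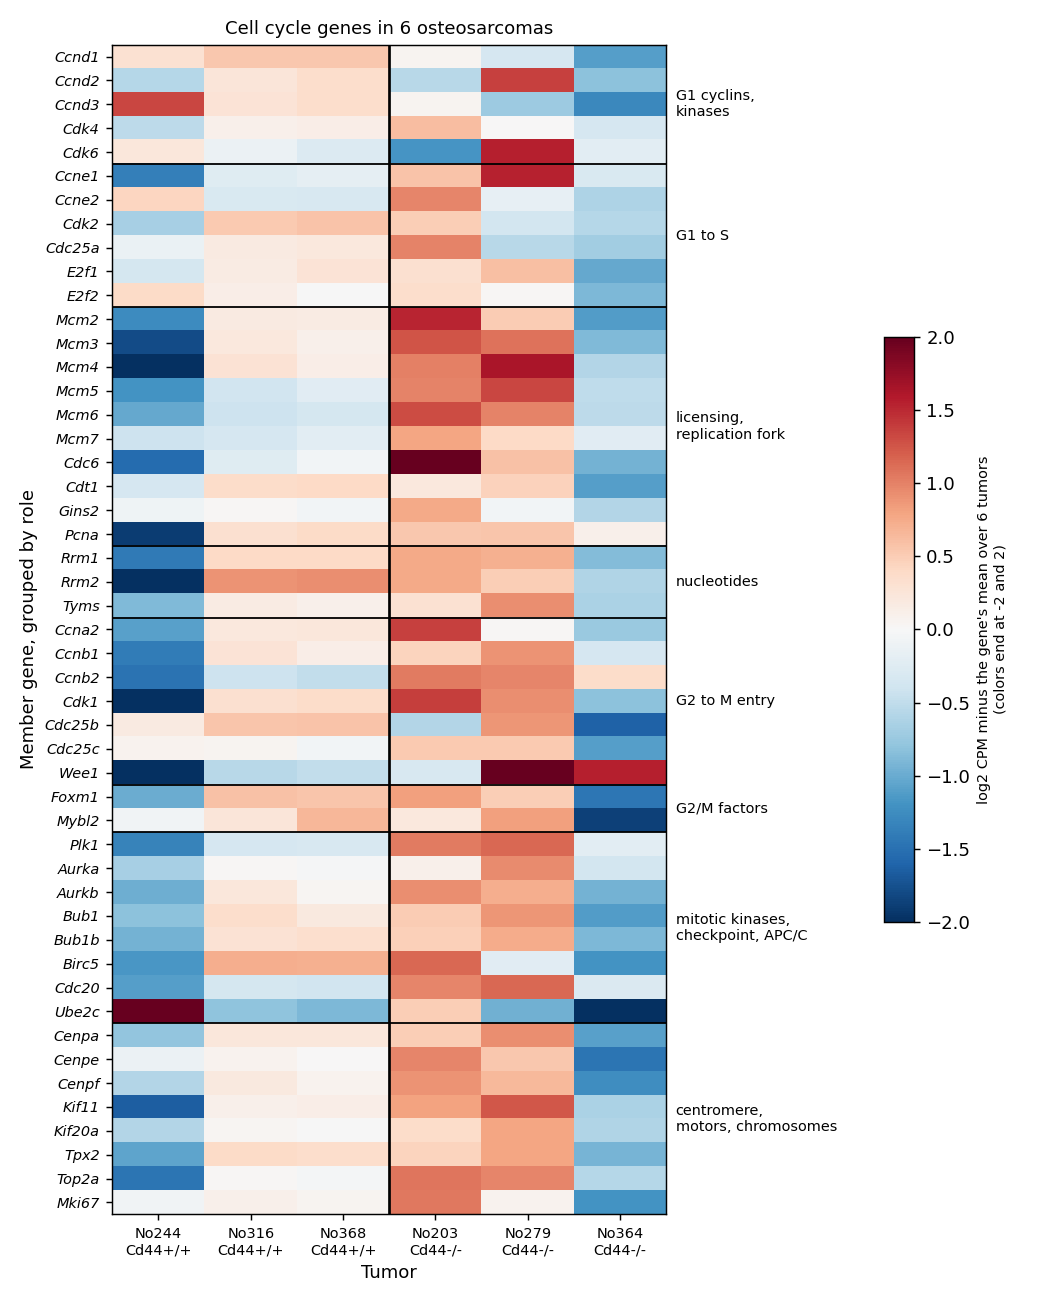
Heat map of the 49 cell cycle genes (rows, grouped by role) in 6 tumors (columns, No244, No316 and No368 Cd44+/+, No203, No279 and No364 Cd44-/-); the color is log2 CPM minus the gene's own mean over the 6 tumors, and colors end at -2 and 2. The columns of No244 and No364 are blue for most genes, 48 of 49 members having their lowest value there, and those of No203 and No279 are red for most.

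Both No203 and No279 exceeded No316 and No368 in 31 of 49 members (63.3%, against 28.5% of all genes tested). Both No244 and No364 lay below that pair in 38 members (77.6%, against 28.4%). The entire order, with No203 and No279 on top, the pair between and No244 and No364 at the bottom, held for 24 members (48.98%, against 3.10%). These patterns were chosen after the values were seen and are given as descriptions. Under library size alone, without TMM, the 3 counts were 22, 46 and 21. Within genotypes, the geometric mean of No316 and No368 was 2.01-fold the level of No244 at the median member. The arithmetic mean of No203 and No279 was 2.88-fold the level of No364, so the 2 folds are not quite the same measure. The gap was at least 2-fold for 25 members in Cd44+/+ and for 39 in Cd44-/-. No244 is the tumor with the muscle markers and the high mitochondrial share. No364 is the tumor with the hepatocyte markers, and with an epithelial sum in which Krt8 and Krt18 were the largest values. Both had a higher sum of erythroid markers than the other 4, with the globin genes as the largest values. The part of any of these in the low values was not tested. No203 and No279 had more osteoclast marker counts than the pair, as had No244, and the part of that in their values was not tested either.

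Whether tumors without Cd44 differ in these genes was asked across all genes with the edgeR quasi-likelihood test. None of the 49 members passed an adjusted p of 0.05, nor did any of the 16839 genes (0%), and the members' smallest adjusted p was 0.452. All 49 members passed the filter on low counts. At an unadjusted p under 0.05, 5 members were higher in Cd44-/- (Ccnb2, Wee1, Cdc20, Mcm6 and Plk1) and 1 was lower (Ccnd3), which is near the background of 6.44% and 4.31% of all genes (6 members in either direction, 12.2% of them, against 10.7%). DESeq2 called 419 of 25317 genes (1.66%) and also none of the members, of which Ccnb2 came closest with an adjusted p of 0.103, and 7 members had an unadjusted p under 0.05 (10.4% of all genes). In simulated counts at the fitted dispersion DESeq2 made more false calls than edgeR, 15 against 0 at a fold change of 4. By limma-voom none was called, and 2 members had an unadjusted p under 0.05, Ccnb2 higher (3.51% of all genes) and Ccnd3 lower (5.64%). The genotypes did not overlap in 6 members, 4 higher (Ccnb2, Wee1, Plk1 and Cdc20) and 2 lower (Ccnd1 and Ccnd3), against a background of 9.49% and 9.57% of all genes. In either direction these were 12.2% of the members, against 19.1% of all genes. The log2 fold change was above 0 for 39 of 49 members (79.6%, against 55.1% of all genes), with a median of 0.37 against 0.11 over all genes.

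**Figure D2:**
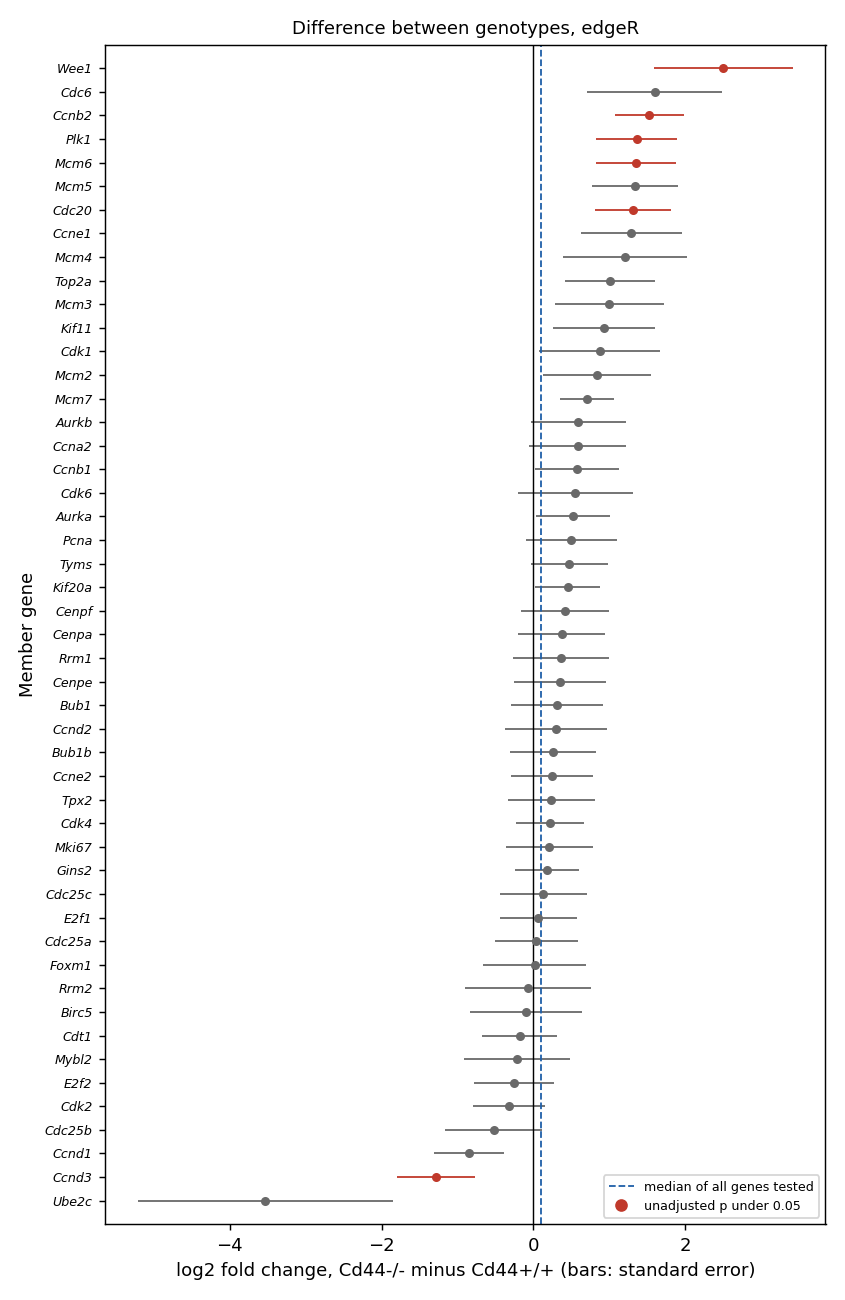
The log2 fold change (Cd44-/- minus Cd44+/+, x axis) of each of the 49 members (y axis, sorted) from edgeR, with its standard error as a bar; red marks an unadjusted p under 0.05, and the dashed line is the median of all genes tested, 0.11. The points run from -3.53 (Ube2c) to 2.50 (Wee1), 39 of them right of 0, and no member passed an adjusted p of 0.05.

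Single tumors decided these counts. Without No364, 10 members had an unadjusted p under 0.05, all higher in Cd44-/- (20.4%, against 4.62% of all genes), the genotypes were apart in 30 members with Cd44-/- higher (61.2%, against 15% of all genes) and in 2 with it lower (13.7%), 44 members had a log2 fold change above 0 (89.8%, against 52.1% of all genes), and the median was 0.76. Without No244, which leaves the near-identical pair as Cd44+/+, 1 member (Ccnb2, higher) had such a p (5.87% of all genes), the genotypes were apart in 4 members each way (19.9% and 19.8% of all genes), and the median was 0.21, close to the 0.19 of all genes. Without No203 the median was 0.10. The fit without No364 counts No316 and No368 as 2 replicates. With that pair summed and No364 left out, 5 members had an unadjusted p under 0.05 in edgeR, all higher in Cd44-/-. Their smallest adjusted p was 0.989, and the share of all genes was not taken for that fit. With No316 and No368 summed as 1 sample, 2 members had an unadjusted p under 0.05, Ccnb2 higher (1.82% of all genes) and Ube2c lower (2.45%), while Mcm6, Plk1, Cdc20, Wee1 and Ccnd3 had p-values of 0.0609 to 0.0823. Under library size alone none had, and the genotypes were apart in 1 member, Ccnd3, which was lower (4.55% of all genes). Ccnb2 alone kept an unadjusted p under 0.05 without each tumor in turn.

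The roles differed in which tumor stood out. The mean log2 CPM of the 10 genes of origin licensing and the replication fork was 3.35, 4.55 and 4.58 in Cd44+/+ and 5.61, 5.30 and 3.91 in Cd44-/-. For the 5 G1 cyclins and their kinases it was 5.85, 5.91 and 5.91, and then 5.50, 6.08 and 4.94, so that No244 was not low. For the pair Foxm1 and Mybl2 it was 3.12, 4.07 and 4.27, and then 4.17, 4.31 and 2.00, with No364 far below all others. Over all 49 members the mean log2 CPM was 4.08 ± 0.60 in Cd44+/+ (SD, n = 2) and 4.57 ± 0.81 in Cd44-/- (SD, n = 3). The difference was smaller than either SD. These means include Ube2c, at 1548 CPM in No244, a value that cannot be read as that of a cell cycle gene.

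**Figure D3:**
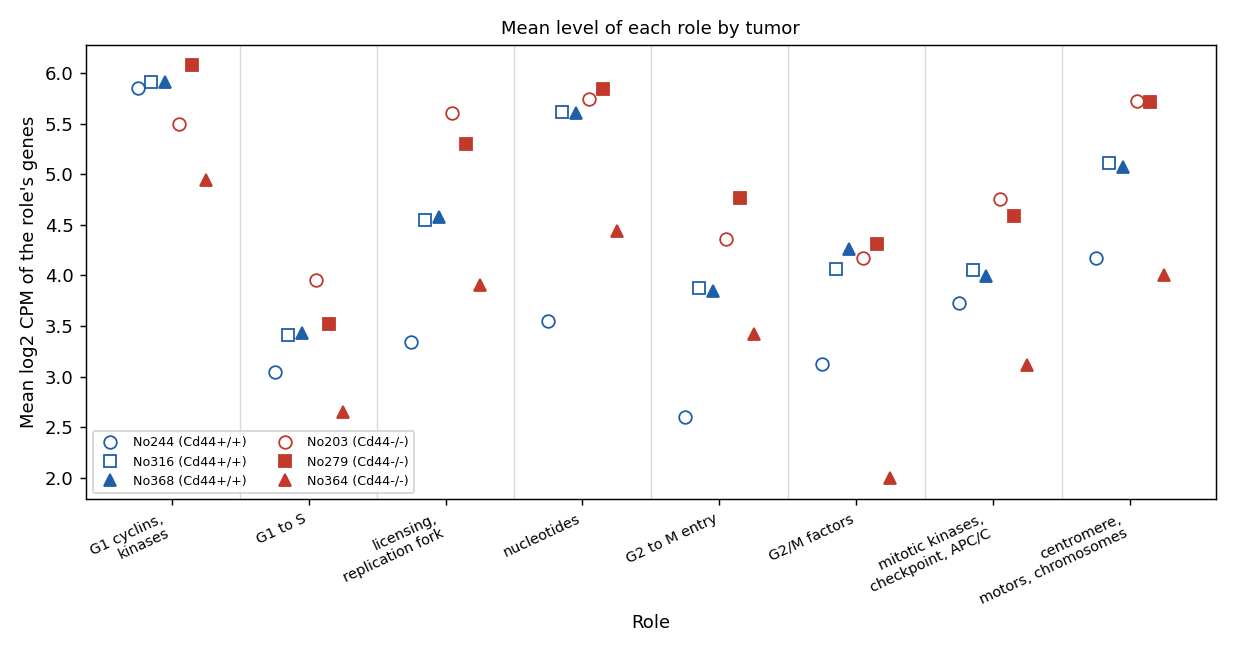
Mean log2 CPM (y axis) of the genes of each of 8 roles (x axis) in each tumor, Cd44+/+ in blue and Cd44-/- in red, 1 point per tumor. No244 and No364 are the lowest points in 7 of the 8 roles. For the G1 cyclins, No364 at 4.94 and No203 at 5.50 are lowest. The role of the mitotic kinases includes Ube2c, at 1548 CPM in No244.

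The D-type cyclins bring growth signals to the cycle, and Ccnd1 and Ccnd3 were the only members in which every Cd44-/- tumor lay below every Cd44+/+ tumor. Ccnd1 (cyclin D1) was at 292, 345 and 344 CPM in Cd44+/+ and at 247, 188 and 110.0 CPM in Cd44-/-. Every Cd44+/+ tumor exceeded every Cd44-/- tumor, with means of 318 ± 36.9 (SD, n = 2) and 182 ± 68.6 (SD, n = 3). Its log2 fold change was -0.85 (SE 0.46, edgeR adjusted p 0.514). Ccnd3 (cyclin D3) was at 243, 117 and 122 CPM and at 101, 58.4 and 39.3 CPM, again without overlap, though No316 and No203 were near each other. Ccnd3 had a log2 fold change of -1.28 (SE 0.52), with an unadjusted p of 0.0435 and an adjusted p of 0.459 in edgeR. Both genes share exon bases with a gene on the other strand, Ccnd1 1100 bases with LTO1 and Ccnd3 361 bases with Bysl, and LTO1 itself was at 293 CPM in No244 and 60.7 and 64.7 CPM in No279 and No364. Since the strand setting of the counting is not given in the sources used here, reads of such partners cannot be told apart, and the same is true of Bysl, at 175 CPM in No244 and 26.5 to 75.5 CPM in the other tumors. Ccnd2 (cyclin D2) and Cdk6 were highest in No279, at 38.1 and 15.1 CPM, while the other 5 tumors held 8.37 to 18.8 CPM and 2.26 to 5.97 CPM. Cdk4, the partner kinase, spanned only 152 to 337 CPM and overlapped between genotypes.

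**Figure D4:**
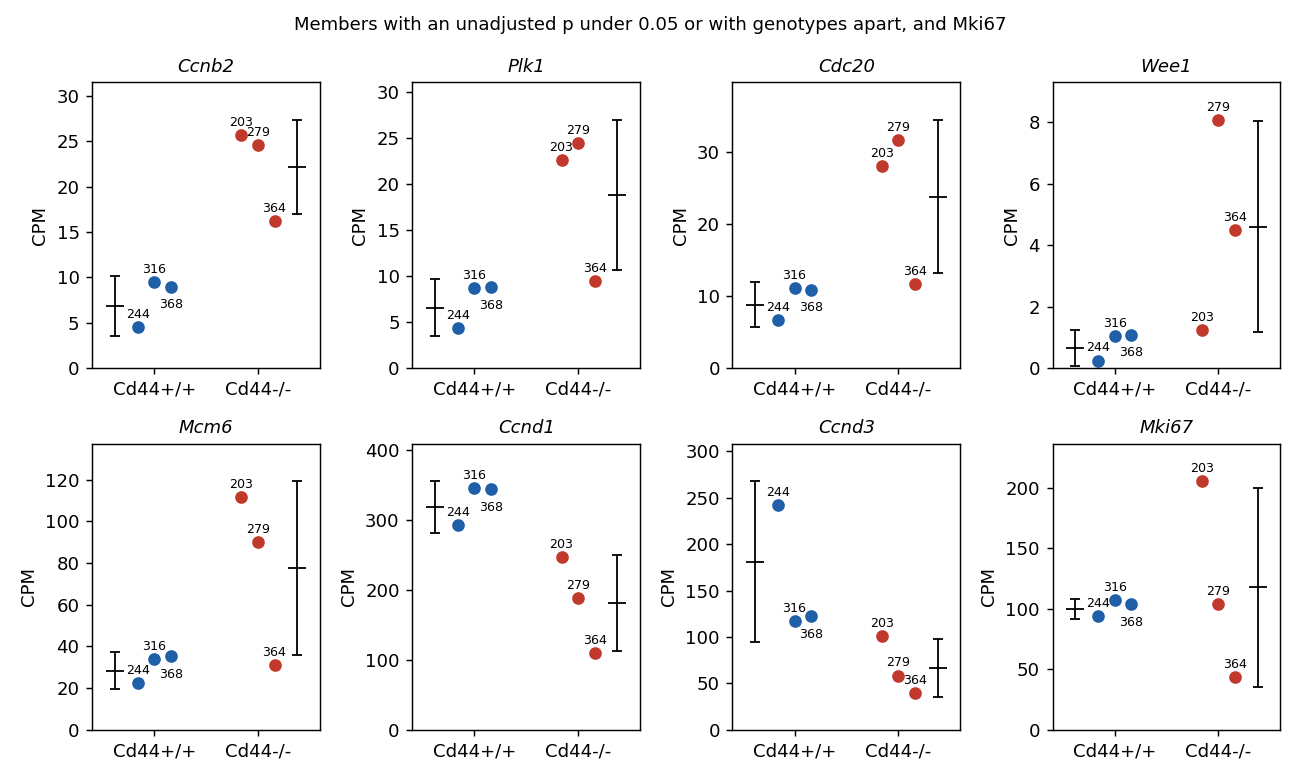
CPM (y axes from 0) of 8 genes in each tumor (points labelled with the mouse number, Cd44+/+ blue, Cd44-/- red), with the mean ± SD of each genotype as a bar beside the points (No316 and No368 counted as 1, n = 2 and n = 3). Ccnb2, Plk1, Cdc20 and Wee1 have all red points above all blue points, with No364 or No203 close to the blue ones in Plk1, Cdc20 and Wee1; Ccnd1 and Ccnd3 have all red points below, and Mcm6 and Mki67 overlap.

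Of the 6 genes of the G1 to S transition, none had an unadjusted p under 0.05 or genotypes apart. Ccne1 (cyclin E1) was at 1.60, 3.48 and 3.65 CPM in Cd44+/+ and at 6.11, 12.0 and 3.35 CPM in Cd44-/-. Its highest value was that of No279, and No364 lay below No316 and No368, so the genotypes overlapped. Its log2 fold change of 1.29 (SE 0.66) had an adjusted p of 0.498 in edgeR. Cdk2, the kinase of cyclin E and the member of this group with the highest mean, was at 16.4, 37.1 and 38.5 CPM and at 36.2, 20.1 and 17.5 CPM, the pair and No203 being alike. Cyclin E2 (Ccne2) and Cdc25a, a phosphatase that activates CDK2, were highest in No203, at 24.1 and 26.8 CPM, and lowest in No364, at 7.95 and 8.27 CPM. E2f1 spanned 7.27 to 22.6 CPM and E2f2 2.20 to 5.29 CPM, both lowest in No364.

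Of the 10 replication genes, 9 had a log2 fold change above 0, with a median of 0.92, and 1 had an unadjusted p under 0.05. Mcm6 was at 22.2, 33.8 and 35.4 CPM in Cd44+/+ and at 112, 90.0 and 31.2 CPM in Cd44-/-. No203 and No279 were far above the rest, and No364 fell among the Cd44+/+ tumors. The means were 28.4 ± 8.78 (SD, n = 2) and 77.7 ± 41.7 CPM (SD, n = 3). Its log2 fold change of 1.35 (SE 0.52) had an unadjusted p of 0.0378 and an adjusted p of 0.452 in edgeR. Pcna, the sliding clamp that holds DNA polymerase, was at 20.7, 95.9 and 99.7 CPM and at 112, 112 and 82.4 CPM. In Pcna No244 stood alone at the bottom and No364 was near the pair. The 5 other MCM subunits (Mcm2, Mcm3, Mcm4, Mcm5 and Mcm7) were likewise lowest in No244 and highest in No203 or No279, with the highest tumor between 2.32-fold (Mcm7) and 17.4-fold (Mcm4) above the lowest. Cdc6, which loads the helicase, went from 1.01 CPM in No244 to 13.3 CPM in No203, Cdt1, its partner in loading, from 9.05 CPM in No364 to 26.8 CPM in No279, and Gins2, part of the active helicase, from 14.8 CPM in No364 to 37.3 CPM in No203. Gins2 shares 2758 exon bases with Gse1 on the other strand, so its counts are uncertain.

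The enzymes that make DNA building blocks were low in No244 above all. Rrm1, the large subunit of ribonucleotide reductase, was at 21.6, 75.8 and 75.3 CPM in Cd44+/+ and at 97.1, 94.4 and 31.6 CPM in Cd44-/-. Tyms, thymidylate synthase, was at 12.6, 25.9 and 24.7 CPM and at 28.7, 44.1 and 14.97 CPM. In both, No244 and No364 lay below the other 4 tumors, one from each genotype. Tyms had a log2 fold change of 0.47 (SE 0.51, edgeR adjusted p 0.729). Rrm2, the small subunit, had the widest range of the 3, from 5.88 CPM in No244 to 62.0 CPM in No368.

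Among the genes of entry into mitosis, Ccnb2 had the smallest p of all members. It was at 4.54, 9.45 and 8.98 CPM in Cd44+/+ and at 25.7, 24.6 and 16.2 CPM in Cd44-/-. The lowest Cd44-/- tumor lay above the highest Cd44+/+ tumor, and No364, low in most members, was here above the pair. The means were 6.88 ± 3.31 (SD, n = 2) and 22.2 ± 5.22 CPM (SD, n = 3). With an SE of 0.45, its log2 fold change was 1.53, with an unadjusted p of 0.0123 and an adjusted p of 0.452 in edgeR, and it lay between 1.26 and 1.85 under all alternatives. The gene shares no exon with another, but the pseudogene Ccnb2-ps, whose reads could be exchanged with it, was at 4.71 CPM in No244 and 0.88 to 1.78 CPM elsewhere.

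Wee1, the kinase that holds CDK1 inactive, was at 0.25, 1.04 and 1.09 CPM in Cd44+/+ and at 1.23, 8.09 and 4.50 CPM in Cd44-/-. The value of No244 rests on 3 counts, and No203 exceeded the pair by little. Wee1 had a log2 fold change of 2.50 (SE 0.92, unadjusted p 0.0304, edgeR adjusted p 0.452). Ccna2 (cyclin A2), the member of this group with the highest mean, was at 26.4, 65.0 and 65.4 CPM and at 145, 57.2 and 33.5 CPM, with No203 alone above the pair. Cdk1 ran from 10.8 CPM in No244 to 128 CPM in No203, and Ccnb1 (cyclin B1) from 7.81 CPM in No244 to 38.2 CPM in No279. Of the phosphatases that oppose WEE1, Cdc25b was lowest in No364 at 6.07 CPM and highest in No279 at 34.6 CPM, and Cdc25c spanned 2.46 to 7.63 CPM between the same tumors.

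The transcription factors of late cell cycle genes did not separate the genotypes. Foxm1 was at 11.0, 32.8 and 32.3 CPM in Cd44+/+ and at 38.5, 30.7 and 8.01 CPM in Cd44-/-. Mybl2 was at 6.89, 8.58 and 11.5 CPM and at 8.41, 12.8 and 1.99 CPM. In each gene No364 was lowest and the other 2 Cd44-/- tumors were among the Cd44+/+ values or just above them. Mybl2 had a log2 fold change of -0.22 (SE 0.70, edgeR adjusted p 0.918), which was 0.24 without No364.

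Of the 8 mitotic kinases, checkpoint genes and genes of the anaphase-promoting complex, Plk1 and Cdc20 were higher in every Cd44-/- tumor. Plk1, a kinase of spindle and centrosome, was at 4.37, 8.76 and 8.82 CPM in Cd44+/+ and at 22.6, 24.5 and 9.52 CPM in Cd44-/-. Cdc20 was at 6.64, 11.2 and 10.9 CPM and at 28.1, 31.7 and 11.7 CPM. In both genes No364 exceeded the pair by less than 1 CPM, while No203 and No279 stood far apart from all others. The log2 fold change was 1.36 for Plk1 (SE 0.53, unadjusted p 0.0392) and 1.31 for Cdc20 (SE 0.50, unadjusted p 0.0352), both with an edgeR adjusted p of 0.452. Under library size alone the genotypes overlapped in both. Aurka and Aurkb, the Aurora kinases, spanned 7.31 to 22.3 CPM and 4.37 to 16.5 CPM. The checkpoint kinase genes Bub1 and Bub1b spanned 5.81 to 23.2 CPM and 8.07 to 25.9 CPM, and Birc5, survivin, 11.5 to 58.8 CPM, each lowest in No244 or No364.

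Ube2c, the ubiquitin-conjugating enzyme of the anaphase-promoting complex, had the highest value of any member and cannot be read as a cell cycle gene in every tumor. It was at 1548, 37.9 and 35.7 CPM in Cd44+/+ and at 93.0, 34.1 and 13.0 CPM in Cd44-/-. Tnnc2, fast skeletal troponin C, lies on the opposite strand, and the last exon of Ube2c (chr2:164777190-164778822, GRCm38, 1633 bases) spans 5 exons of Tnnc2, sharing 592 bases or 74% of its exon sequence. In No244, 18419 reads were counted for Ube2c and 18351 for Tnnc2. In the same order as above, the counts of the other 5 tumors were 1091 and 851, and 2346, 1034 and 248 for Ube2c, and 432 and 312, and 1373, 116 and 18 for Tnnc2. So the gene with the muscle partner followed it where muscle markers were high. The difference of both levels was 5.71, 22.9 and 22.6 CPM and 38.6, 30.3 and 12.0 CPM. It is no level of Ube2c, since only 74% of the Tnnc2 exon sequence is shared and the reads counted for both genes are not known. In No244 it was 68 reads left of 18419 and 18351, so no order of the tumors is read from it. As counted, Ube2c had a log2 fold change of -3.53 (SE 1.68, edgeR adjusted p 0.483), and without No244 one of 0.34. DESeq2 gave the gene no p-value.

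**Figure D5:**
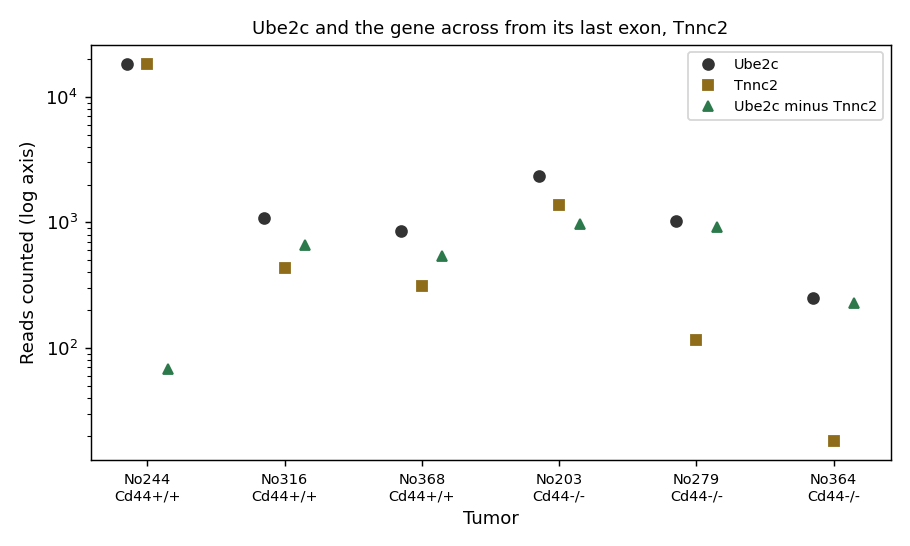
Reads counted (y axis, log scale) for Ube2c (circles), for Tnnc2 (squares) and their difference (triangles) in each tumor (x axis). Circle and square coincide in No244, at 18419 and 18351 reads, and are furthest apart in No364, at 248 and 18.

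In all, 17 of the 49 members share at least 51 exon bases, the length of a read, with another gene, most of them on the other strand. Among them were Kif20a (1271 bases with Cdc23), Cdk4 (641 with Tspan31), Ccne2 (609 with Ints8), Ccna2 (510 with Exosc9), Plk1 (156 with Gm44985) and Cdc20 (53 with Elovl1). In the 32 members without such a partner, 3 had an unadjusted p under 0.05 (Ccnb2, Mcm6 and Wee1, all higher, 9.38% of them against 10.7% of all genes), the genotypes were apart in 2 (Ccnb2 and Wee1, 6.25% against 19.1%), and the median log2 fold change was 0.45.

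All 8 genes of centromere, spindle motors and chromosome structure had a log2 fold change above 0, and none an unadjusted p under 0.05. Mki67 was at 94.1, 107 and 103 CPM in Cd44+/+ and at 205, 104 and 43.2 CPM in Cd44-/-. The Cd44+/+ tumors were close to each other, and the Cd44-/- tumors ranged from far below to far above them, with means of 99.7 ± 7.87 (SD, n = 2) and 117 ± 82.0 CPM (SD, n = 3). Mki67 had a log2 fold change of 0.21 (SE 0.57, edgeR adjusted p 0.905), which was -0.50 without No203 and -0.067 in limma-voom. Top2a, which untangles DNA before division and is the target of doxorubicin, was at 20.8, 58.6 and 56.0 CPM and at 121, 113 and 38.7 CPM. No364 was below the pair, No203 and No279 were above it, and the log2 fold change was 1.01 (SE 0.59, edgeR adjusted p 0.540). The genes of the kinetochore (Cenpa, Cenpe and Cenpf) and of the spindle (Kif11, Kif20a and Tpx2) were lowest in No244 or No364 and highest in No203 or No279, with the highest 2.62-fold (Kif20a) to 7.42-fold (Kif11) above the lowest.

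No203 and No279, both high in most members, were not alike gene by gene. No279 exceeded No203 in Cdk6 (6.66-fold), Wee1 (6.58-fold), Ccnd2 (3.80-fold) and Cdc25b (2.77-fold). No203 exceeded No279 in Cdc6 (3.03-fold), Cdc25a (2.93-fold), Ube2c (2.73-fold), Birc5 (2.61-fold), Ccna2 (2.53-fold), Ccne2 (2.22-fold) and Mcm2 (2.03-fold), and in Mki67 by 1.98-fold. For Ube2c, Ccna2 and Ccne2, reads of the partner that shares exon bases cannot be told apart. These partners were also higher in No203 than in No279: Tnnc2 (54.4 against 3.83 CPM), Exosc9 (64.1 against 21.2 CPM) and Ints8 (38.4 against 15.8 CPM). Plk1, Cdc25c, Pcna, Rrm1, Ccnb2 and Top2a differed between No203 and No279 by less than 1.1-fold. These are comparisons of 2 tumors of the same genotype, with no replicate of either.

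Compared per kilobase of exon, as the mean over the tumors, Ube2c was highest at 113 CPM per kb, a value in which reads of Tnnc2 cannot be told apart. Next were Cdk4 (69.8), Ccnd1 (54.0), Pcna (36.3) and Ccna2 (16.01 CPM per kb). The lowest levels were those of Cdk6 (0.44), Wee1 (0.79), Cdc6 (0.81) and E2f2 (0.87 CPM per kb).

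A further 98 genes of the cell cycle were read in the same fit, 29 of replication, 42 of mitosis, 7 inhibitors of cyclin-dependent kinases, 15 of the E2F and DREAM complexes and 5 of the checkpoint kinases. All were tested and none was called by edgeR or in any alternative. The log2 fold change was above 0 in 75 (76.5%, against 55.1% of all genes) and below 0 in 23, with a median of 0.37 as in the members. The genotypes were apart in 7 with Cd44-/- higher (7.14%, against 9.49% of all genes) and in 2 with it lower (2.04%, against 9.57%). As in the members, most of the lowest values lay in No244 (40 genes) and No364 (41), and most of the highest in No203 (41) and No279 (36). Against this, 9 genes were highest in No244 and 5 in No364.

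Among the mitosis genes, Kif2c, a kinesin of the centromere, was at 4.29, 4.80 and 6.88 CPM and at 13.9, 14.3 and 6.91 CPM, so that No364 and No368 were all but equal (log2 fold change 1.13, SE 0.49, edgeR adjusted p 0.462).

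The inhibitors of cyclin-dependent kinases went in both directions. Cdkn2c and Cdkn2d belong to the INK4 family, which inhibits CDK4 and CDK6. Cdkn2c was at 6.97, 17.1 and 16.2 CPM in Cd44+/+ and at 21.2, 50.7 and 21.5 CPM in Cd44-/-, without overlap (log2 fold change 1.21, SE 0.54, edgeR adjusted p 0.469). Cdkn2d was at 13.7, 28.8 and 28.0 CPM and at 13.0, 13.1 and 4.55 CPM (log2 fold change -1.20, SE 0.55, edgeR adjusted p 0.475). The lowest Cd44+/+ tumor and the highest Cd44-/- tumors almost met in Cdkn2d. Cdkn1b (p27) was at 65.5, 69.2 and 66.0 CPM and at 52.1, 48.6 and 38.2 CPM, the genotypes being apart with a small difference (log2 fold change -0.53, SE 0.29, edgeR adjusted p 0.520). Cdkn1a (p21), a target of p53, was at 112, 251 and 253 CPM and at 150, 46.5 and 103 CPM, with an overlap of the genotypes (log2 fold change -1.04, SE 0.57, edgeR adjusted p 0.520). Cdkn2a and Cdkn2b, named after their values were seen, were at 102 and 39.1 CPM in No279, while the other tumors held 1.03 to 7.27 CPM and 2.60 to 7.81 CPM. No279 was the tumor with the highest Cdkn2a, Cdkn2b, Cdk6 and Ccnd2, and, like No364, low in Sp7 and Ibsp.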

How the data were processed

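Raw counts of reads per Ensembl gene in 6 osteosarcomas were deposited by the authors, 1 column per tumor and no column left unused. Per the labels and the study's methods, stranded mRNA libraries were read from 1 end (51 bases), aligned to GRCm38 with HISAT2 2.0.2 and counted with featureCounts (Subread 2.0.0, per the submitters' processing notes). The strand and multi-mapping settings are not given in the sources used here. Symbols were found for 37607 of 39179 identifiers. GENCODE M21, another release than that used for counting, held 37693 of the identifiers and gave exon overlaps and lengths.

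Genotypes were compared with edgeR 4.0.16 (R 4.3.3; TMM, filterByExpr defaults, quasi-likelihood F test, Benjamini-Hochberg over all genes tested, no covariate). DESeq2 1.42.0 and limma-voom (limma 3.58.1) were alternatives, besides other scalings and filters, No316 and No368 summed, and leaving out each tumor. The biological coefficient of variation was 0.708. In simulated counts at that dispersion, edgeR recovered 0 of 200 genes at a fold change of 4 and 134 at 16. Each SE was taken from the log2 fold change and the square root of the F statistic, as their quotient. Samples of a group are different mice by label, and p-values measure the spread between these libraries. Pairs of tumors were compared by the 95% binomial range around their median ratio over genes with at least 20 counts.

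The members and lists were chosen with earlier results of these data known, so no test was made over a list. All members are named, with every tumor's value for the highest mean and the smallest p of each of 8 roles and for each with an unadjusted p under 0.05 or genotypes apart. Of the other cell cycle genes, the 3 smallest p in each direction were chosen, of which 1 is not reported here. A planned correlation over tumors was not computed, since 5 independent tumors are too few. Motifs were searched in the 250 bases before RefSeq starts.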

Additional observations from a re-analysis of the deposited data

How the results depend on the processing

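No member and no other cell cycle gene was called under any of 15 alternatives, and no gene at all except by DESeq2, which called 419. The number of members with an unadjusted p under 0.05, 6 as reported, was 0 under library size alone, 2 in limma-voom, 2 with No316 and No368 summed, 3 without the members that share exons, and 1 to 10 when single tumors were left out, 1 without No244, 2 without No316, No368 or No279, 3 without No203 and 10 without No364. The number whose genotypes do not overlap, also 6 (12.2%, against 19.1% of all genes), was 1 under library size alone (lower, 4.55% of all genes). It was 2 without the members that share exons and 6 to 32 without single tumors. The 32 were without No364, 30 higher and 2 lower, where the shares of all genes were 15% and 13.7%. With the pair summed and No364 left out the number was also 32, a setting for which the share of all genes was not taken. With the pair summed and No364 left out, 5 members had an unadjusted p under 0.05. The members' median log2 fold change lay between 0.10 and 0.85. Among the 13 members and 6 other genes given with a fold change, the sign reversed for Mybl2 (-0.79 to 0.24 without single tumors, the latter without No364, and 0.33 with the pair also summed), Ube2c (-4.53 to 0.34, the latter without No244) and Mki67 (-0.50 without No203 to 0.61 without No364, and -0.067 in limma-voom). Cd44 passed the threshold in DESeq2 alone. Wee1 gave no value with at least 10 counts in every tumor. The summed pair without No364 and the exclusion of members that share exons were chosen after seeing the data. No paired analysis was possible because the labels give the genotypes no shared replicate numbers. Members below a few CPM, such as Wee1 with 3 counts in No244, are limited by depth.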
